A study of Mus musculus with 6 samples.

Results

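Potassium channel genes were followed in ribosome-bound and whole-tissue RNA of the mouse thalamus. The genes were taken by symbol, as the letters Kcn, further small letters and a closing number, with a minimum of 1 CPM (reads scaled to a common total of gene reads) in at least 3 of the 6 libraries. Of 92 gene rows with such a symbol, 70 reached that minimum, out of 32531 gene rows in each table. All 70 were among the 16496 genes that entered the statistical test. The libraries came from untreated adult mice of the line Slc17a6-EGFP/Rpl10a (JX883), in which the ribosomal protein Rpl10a fused to EGFP is made under the control of Slc17a6, which encodes VGLUT2, a transporter that loads glutamate into synaptic vesicles. In translating ribosome affinity purification (TRAP), tagged ribosomes are pulled from the homogenised tissue with antibodies to EGFP, so the purified RNA (IP) comes mainly from the tagged neurons, while the RNA before purification (Input) was taken to come from all cells of the dissected tissue (the labels call both kinds ribosome-bound). There were 3 IP and 3 Input libraries, with replicate numbers 1 to 3 in each group, and all 6 carried the transgene. Whether replicates are separate or pooled animals is not in the labels, and a p-value here reflects library-to-library spread that could be partly technical.

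Potassium channels let potassium leave or enter the cell along its gradient and so set the resting potential, shape the action potential and limit repetitive firing. Voltage-gated channels open on depolarisation, inward rectifiers pass current near rest, tandem-pore (two-pore) channels carry leak current, and a further class opens with internal calcium or sodium. Auxiliary proteins bind the pore subunits and change their trafficking and gating, and modifier subunits form no channel alone but join other voltage-gated subunits. Thalamic relay neurons are known for a leak current of TASK channels and an A-type current of the Shal (Kv4) family, while astrocytes clear potassium through Kir4.1 and Kir5.1.

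The libraries held between 44081149 and 54421395 gene reads. Slc17a6 stood at 6488, 2192 and 2199 CPM in IP replicates 1, 2 and 3 and at 3151, 875 and 477 CPM in Input, so it was higher in IP in 3 of 3 replicates, while the groups overlapped. Its log2 fold change of IP over Input was 1.27 ± 0.68 (SE; edgeR adjusted p = 0.206), and 1.52 with the replicate number as a block, where it passed (edgeR adjusted p = 0.000246). Levels are given as TMM-scaled CPM, that is, CPM after correction for library composition. Summed over 10 astrocyte markers, 9 of which were lower in IP (edgeR adjusted p under 0.05), the level ran from 436 to 880 CPM in IP and from 1784 to 3364 CPM in Input. All 10 oligodendrocyte markers were lower, with sums of 159 to 295 CPM in IP and 3546 to 5278 CPM in Input, and of 10 GABAergic neuron markers 7 were lower, with sums of 134 to 306 CPM in IP and 1071 to 1624 CPM in Input. Of the marker genes, Trem2 of microglia and Tie1 of endothelium had no read in any IP library. Input replicate 3 stood apart: markers of cortex, hippocampus and striatum summed to 2133 CPM there against 809 and 929 CPM in Input replicates 1 and 2, choroid plexus and ependymal markers to 1224 against 47.1 and 46.6 CPM, and thalamic glutamatergic markers to 2808 against 8361 and 5154 CPM. For members, results that rest on that library are given with and without it.

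A minority of potassium channel genes differed between IP and Input beyond the spread of the libraries, and several of these are inward rectifiers. Of the 70 genes, 5 rose in IP (Kcnj5, Kcnc4, Kcnj12, Kcnip4 and Kcnip1) and 7 fell (Kcnj10, Kcnj16, Kcnj4, Kcns3, Kcng4, Kcnj2 and Kcnt1), while 58 did not pass (edgeR quasi-likelihood test, Benjamini-Hochberg adjusted p under 0.05). The 12 called genes are 17.1% of the members, against 25.2% of all tested genes, of which 9.6% were higher and 15.6% lower in IP. Values of IP and Input did not overlap for 19 members (27.1%), against 44.9% of all tested genes. The median log2 fold change of IP over Input was -0.10 over the members and -0.04 over all tested genes, and 36 members lay between -0.5 and 0.5. In each of the 12 called members, all 3 replicate pairs pointed the same way, as they did in 43 of all 70 members. The calls came from these same libraries, so the agreement is a description only. Those calls leave the pairing by replicate number out. With the replicate number as a block in the fit, 10 members were higher and 10 lower, or 28.6% of members against 35.1% of all tested genes. Leaving out 1 library ended at least 1 call for 8 of the 12 genes. The calls of Kcnj10, Kcnj16, Kcng4 and Kcnip4, which numbered 4 of 12, held in each of the 6 fits without 1 library. The counts were 2 higher and 3 lower without IP replicate 2, 2 and 5 without Input replicate 2, 3 and 4 without Input replicate 3, 3 and 7 without IP replicate 3, 4 and 6 without IP replicate 1, and 7 and 8 without Input replicate 1.

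**Figure D1:**
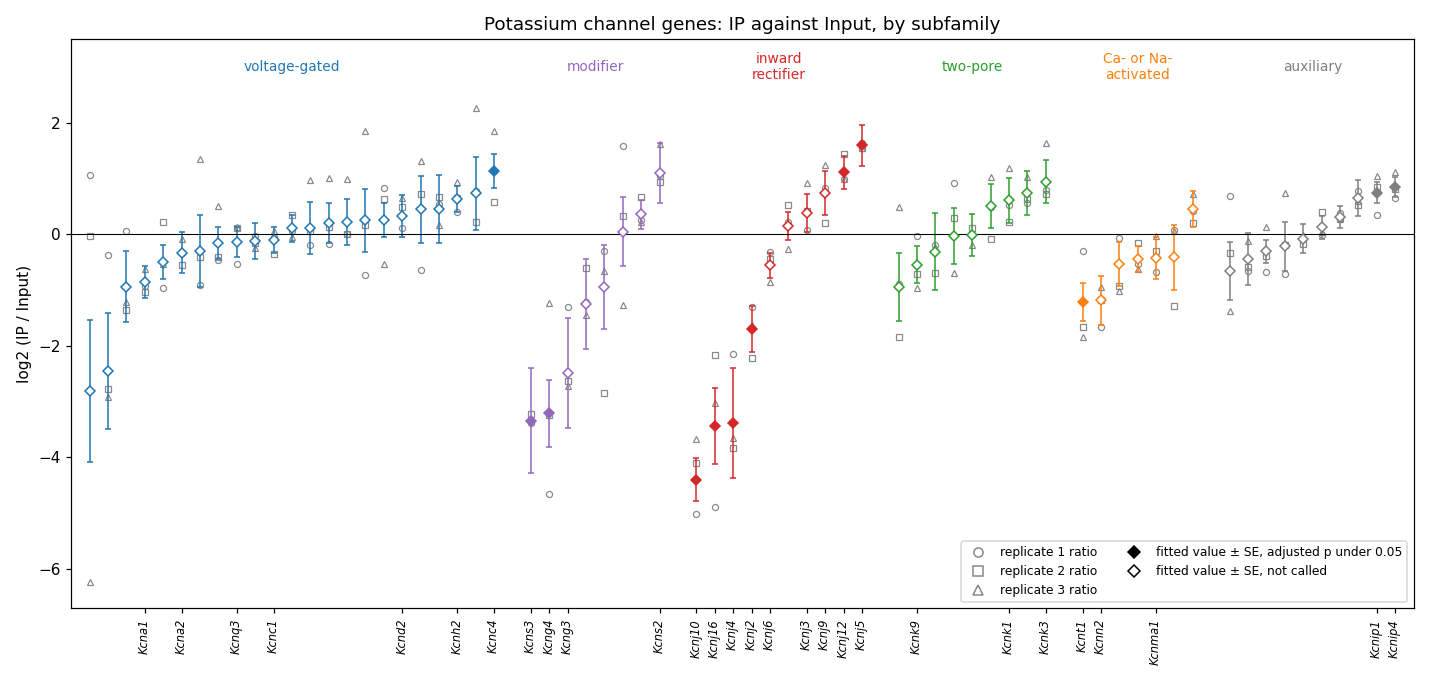
Log2 ratio of IP over Input for 67 of the 70 potassium channel genes, ordered within each subfamily, with names on those described with values in every library. Grey symbols are the ratios of the 3 replicate pairs, coloured diamonds the fitted log2 fold change with its SE, and filled diamonds the 12 genes with an edgeR adjusted p under 0.05, of which Kcnj10 lies lowest at -4.40 and Kcnj5 highest at 1.59.

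The minimum of 1 CPM was met in all 6 libraries by 58 members and in fewer by 12. Kcnj4 met it in 3 Input libraries and in no IP library, and Kcns3 and Kcng3 in 3 Input libraries and 1 IP library, so these genes entered through the group in which they were higher. Kcng4, Kcns1, Kcnv1 and Kcnk6 met it in 3 Input libraries and 2 IP libraries. In all, 9 members met it in fewer than 3 IP libraries and 5 in fewer than 3 Input libraries. Just inside the minimum lay Kcnk6 and Kcnj4, with 1.20 and 1.23 CPM in the library ranked 3 from the top, and just outside lay Kcnj13 and Kcng1, with 0.798 and 0.687 CPM. Among the 22 rows left out, 4 (Kcna7, Kcne1, Kcnj1 and Kcnk16) had no read in any library, which allows up to 3 reads, or between 0.0551 and 0.0681 CPM. Kcnj8, the Kir6.1 pore of pericytes and smooth muscle, had 0, 1 and 0 reads in IP replicates 1, 2 and 3 and 62, 147 and 1 in Input. Kcnmb1, the BK channel subunit of smooth muscle, had 11, 2 and 0 reads in IP and 117, 109 and 15 in Input (edgeR adjusted p = 0.0513, and 0.0128 with the block). Kcnj13, a channel of choroid plexus, had 0, 0 and 10 reads in IP and 47, 36 and 565 in Input, highest in the library in which the choroid plexus markers were highest. It was called lower in IP, at -6.23 ± 1.69 (edgeR adjusted p = 0.0275, and 0.000472 with the block). That call held in 3 of 6 fits without 1 library, and Kcnj13 did not pass with limma-voom (0.0695). Of its exon bases, 49.1% are shared with another annotated gene. Kcnq1, which shares its locus with the antisense transcript Kcnq1ot1, had 2 reads in IP and 30 in Input, all in replicate 3, and reads that fell on both could not be assigned.

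Voltage-gated pore subunits formed the largest subfamily, with 26 members, of which Kcnc4 rose and the other 25 did not pass. DESeq2 called 5 of them and limma-voom 2. Their log2 fold changes ran from -2.81 for Kcnh4 to 1.14 for Kcnc4, with a median of 0.05. Kcnc4, the Kv3.4 subunit of fast A-type channels (chromosome 3 from 107438303 to 107459552, GRCm38), had 34.0, 41.9 and 51.1 CPM in IP replicates 1, 2 and 3 and 15.6, 28.0 and 14.2 CPM in Input. Each IP value was above every Input value. The log2 fold change was 1.14 ± 0.31 (SE; edgeR adjusted p = 0.0271). The call ended without IP replicate 2 or 3 (edgeR adjusted p = 0.0745 and 0.0917) and without Input replicate 1 or 3 (0.0664 and 0.0581), with values between 0.97 and 1.14.

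The Kv3 subunits Kcnc1 and Kcnc2, which serve fast repolarisation and high-frequency firing, did not pass. Kcnc1 had 339, 201 and 253 CPM in IP and 351, 258 and 243 CPM in Input, with a log2 fold change of -0.11 ± 0.24 (edgeR adjusted p = 0.785). Kcnc2, the Kv3.2 subunit, ranged from 282 to 551 CPM in IP and from 162 to 631 CPM in Input. In both genes the groups overlapped, and replicate 1 was the highest library of each group.

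Among Shaker (Kv1) subunits, which sit in axons and near the spike initiation zone, Kcna1 was lower in each IP library than in every Input library. It had 178, 97.2 and 146 CPM in IP and 340, 199 and 225 CPM in Input, a log2 fold change of -0.86 ± 0.28 that narrowly missed the threshold (edgeR adjusted p = 0.0536). It passed with the replicate block, at -0.86 ± 0.15 (edgeR adjusted p = 0.0013), with RLE factors (0.0457), library totals (0.0290) or upper-quartile factors (0.0306) in place of TMM, with DESeq2 (0.0155) and with limma-voom (0.0419). Of the 6 fits without 1 library it passed in 1, that without IP replicate 1 (edgeR adjusted p = 0.0445), and adjusted p ran up to 0.160 in the others, with values from -1.05 to -0.59. Kcna2, a common partner of Kcna1 in the same tetramers, had 662, 306 and 353 CPM in IP and 833, 451 and 375 CPM in Input, and its value of -0.33 ± 0.37 did not pass (edgeR adjusted p = 0.560). Kcna4 and Kcna6 had log2 fold changes of 0.22 and 0.11. Of the exon bases of Kcna6, 39.6% are shared with another annotated gene, so its count is uncertain.

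Kcnd2 and Kcnq3 had overlapping groups, and Kcnh2 did not. Kcnd2, the Kv4.2 pore of the somatodendritic A-type current, had 149, 91.4 and 81.9 CPM in IP and 139, 65.6 and 52.3 CPM in Input, with a log2 fold change of 0.33 ± 0.38 (edgeR adjusted p = 0.571). Kcnq3, an M-channel pore subunit, had 73.6, 77.9 and 59.2 CPM in IP and 106, 71.7 and 54.2 CPM in Input, with a log2 fold change of -0.14 ± 0.26 (edgeR adjusted p = 0.742). Kcnh2, the ERG channel pore, had 56.0, 44.9 and 50.1 CPM in IP and 42.4, 28.5 and 26.2 CPM in Input, without overlap. The fitted 0.64 ± 0.24 missed the threshold (edgeR adjusted p = 0.0837) and met it once replicate number was a block, at 0.66 ± 0.19 (edgeR adjusted p = 0.0201).

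Of the 8 modifier subunits, 2 fell and 6 did not pass, with a median log2 fold change of -1.09 (-0.43 without Input replicate 3). The 5 below 0 (Kcng3, Kcng4, Kcns1, Kcns3 and Kcnv1) met the minimum in all 3 Input libraries but not in all IP libraries. The median and both falls thus rest on genes that entered through Input. Kcng4, the Kv6.4 modifier of Kv2 channels (chromosome 8 from 119623854 to 119635680), had 1.03, 1.58 and 2.41 CPM in IP and 25.9, 14.8 and 5.65 CPM in Input, so every IP library was below every Input library. The group means differed 9.24-fold, and the log2 fold change was -3.21 ± 0.60 (edgeR adjusted p = 0.00656). In bulk tissue, fewer cells of a type and less RNA per cell cannot be told apart, here and in the results that follow. Kcns3, the Kv9.3 modifier of Kv2 channels, had 0.446, 0.207 and 1.42 CPM in IP and 4.63, 1.92 and 14.5 CPM in Input. IP was lower by -3.34 ± 0.94 on the log2 scale (edgeR adjusted p = 0.0311), with replicate ratios of -3.38, -3.22 and -3.35. The Kcns3 call ended without IP replicate 1 (-3.09, edgeR adjusted p = 0.0898), without IP replicate 2 (-2.91, 0.0867) and without Input replicate 3 (-2.23, 0.0983), and it did not pass with limma-voom (0.0646).

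A further pair of modifiers missed the threshold without the replicate block and met it with the block. Kcns2, the Kv9.2 modifier, had 77.2, 44.4 and 25.9 CPM in IP and 37.5, 23.1 and 8.42 CPM in Input, higher in IP in 3 of 3 pairs but with overlapping groups. The fitted value was 1.10 ± 0.54 without the block (edgeR adjusted p = 0.171) and 1.20 ± 0.21 with it (edgeR adjusted p = 0.00154). Kcns2 and Kcns3 thus lay on opposite sides of Input, although both are modifiers of the same Kv2 pores. Kcng3, the Kv6.3 modifier, had 1.03, 0.433 and 3.03 CPM in IP and 2.54, 2.68 and 20.0 CPM in Input, with a log2 fold change of -2.48 ± 0.98 (edgeR adjusted p = 0.0986) and -2.22 ± 0.49 with the block (edgeR adjusted p = 0.00533), and DESeq2 called it as well (DESeq2 adjusted p = 0.0163). The Kv2 pore Kcnb2 did not pass, and ranged from 18.6 to 22.8 CPM in IP and from 9.33 to 25.7 CPM in Input.

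**Figure D2:**
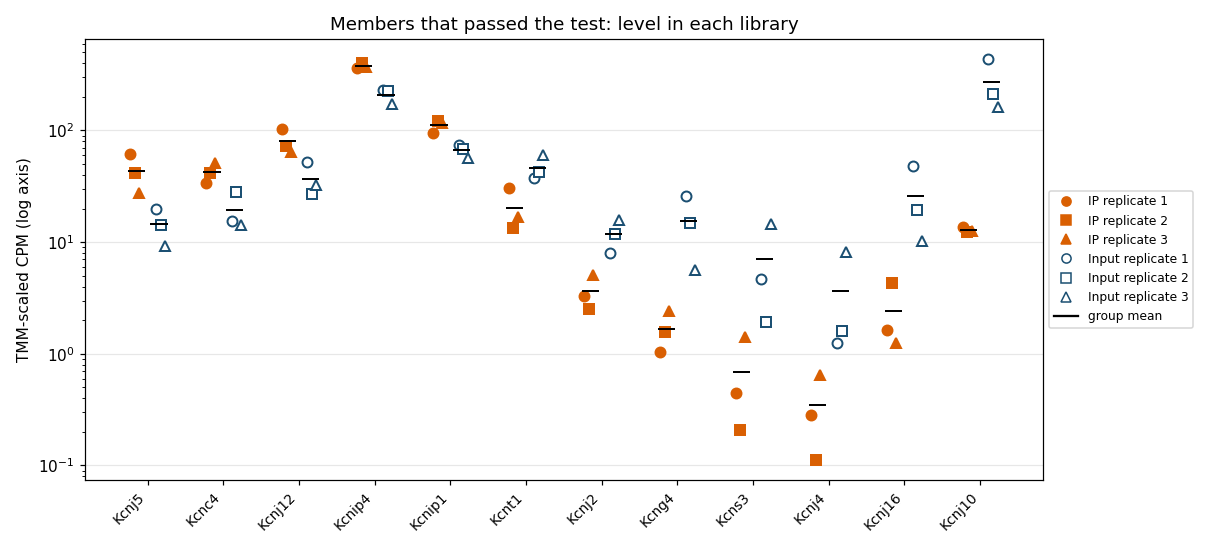
TMM-scaled CPM, on a log axis, of the 12 members that passed the test, with 1 symbol for each library and bars at the group means. Kcnj10 sits between 12.4 and 13.6 CPM in IP and between 161 and 437 CPM in Input, and for each of the 12 genes the IP and Input values do not overlap.

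Inward rectifiers held 6 of the 12 calls, with 2 of 10 members higher, 4 lower and 4 not called. The called share was 60.0%, against 25.2% of all tested genes (9.6% higher and 15.6% lower). Kcnj4, among the 4 lower, met the minimum of 1 CPM in no IP library and so entered through Input. Log2 fold changes of the inward rectifiers spanned the whole range of the family, from -4.40 to 1.59. Kcnj10, the Kir4.1 pore through which astrocytes and oligodendrocytes take up potassium (chromosome 1 from 172341210 to 172374085), had 13.6, 12.4 and 12.6 CPM in IP and 437, 213 and 161 CPM in Input. The Input mean was 21.0 times the IP mean, and the log2 fold change was -4.40 ± 0.39 (edgeR adjusted p = 0.000228). The 10 astrocyte markers had a median of -3.64, with the water channel Aqp4 at -4.60 ± 0.34. Kcnj16, the Kir5.1 subunit that joins Kir4.1 (chromosome 11 from 110968033 to 111027968), had 1.64, 4.31 and 1.25 CPM in IP and 48.3, 19.2 and 10.2 CPM in Input. The log2 fold change was -3.43 ± 0.68 (edgeR adjusted p = 0.00821). Both genes were highest in Input replicate 1, which had the highest Input sums of astrocyte and of thalamic glutamatergic markers. Within Input, that replicate was the highest for 42 of the 70 members and for 35.1% of all tested genes. The part of glial RNA in the Kcnj10 and Kcnj16 values was not tested beyond the marker values given.

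Strong rectifiers of the Kir2 family went in opposite directions. Kcnj12, the Kir2.2 pore (chromosome 11 from 61022564 to 61071131), had 103, 72.8 and 64.2 CPM in IP and 51.8, 27.0 and 32.4 CPM in Input, each IP value above each Input value. Its log2 fold change was 1.11 ± 0.29 (edgeR adjusted p = 0.0251). Kcnj2, the Kir2.1 pore of neurons and vessels, had 3.26, 2.54 and 5.09 CPM in IP and 8.02, 11.8 and 15.7 CPM in Input, with a log2 fold change of -1.70 ± 0.41 (edgeR adjusted p = 0.0177). Kcnj4, the Kir2.3 pore, had 0.284, 0.113 and 0.644 CPM in IP and 1.26, 1.60 and 8.10 CPM in Input, with a log2 fold change of -3.39 ± 0.99 (edgeR adjusted p = 0.0360), and Input replicate 3 carried most of its Input level. The Kcnj12 call ended without IP replicate 1 or 2 (edgeR adjusted p = 0.0705 and 0.0566) and without Input replicate 2 or 3 (0.0865 and 0.0594), and the Kcnj2 call without IP replicate 1 or 2 (0.0524 and 0.0679) or Input replicate 2 (0.0556). Kcnj4 lost its call without IP replicate 1 or 2 (edgeR adjusted p = 0.0953 and 0.1002) and without Input replicate 3 (-2.02, 0.139), and did not pass with limma-voom (0.0733).

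Of the Kir3 (GIRK) subunits, the pores opened by G protein coupled receptors, only Kcnj5 passed without the replicate block. Kcnj5, the Kir3.4 subunit best known from heart (chromosome 9 from 32314707 to 32344350), had the largest rise of all members, with 61.9, 41.9 and 27.3 CPM in IP and 19.9, 14.3 and 9.33 CPM in Input. The replicate ratios were 1.64, 1.55 and 1.55 on the log2 scale, and the fitted value was 1.59 ± 0.37 (edgeR adjusted p = 0.0152). The call ended without Input replicate 2 (1.59, edgeR adjusted p = 0.0530). Kcnj3, the Kir3.1 subunit, had 159, 110 and 111 CPM in IP and 150, 82.8 and 59.0 CPM in Input, and its value of 0.38 ± 0.33 did not pass (edgeR adjusted p = 0.444, with 31.1% of its exon bases shared with another gene). Kcnj9, the Kir3.3 subunit, had 184, 82.4 and 92.8 CPM in IP and 104, 71.3 and 39.5 CPM in Input, a log2 fold change of 0.74 ± 0.40 (edgeR adjusted p = 0.211) that passed with the replicate block, at 0.75 ± 0.20 (edgeR adjusted p = 0.0136). Kcnj6, the Kir3.2 subunit, lay on the other side, with 34.6, 26.9 and 30.3 CPM in IP and 43.3, 36.6 and 55.1 CPM in Input. Its groups did not overlap, but -0.56 ± 0.22 missed the threshold (edgeR adjusted p = 0.103), also in the fit with replicate number as a block (edgeR adjusted p = 0.0519). Kcnj11, the Kir6.2 pore of ATP-sensitive channels, had a log2 fold change of 0.14.

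Some rectifier genes lie side by side. Kcnj9 and Kcnj10 lie next to each other on chromosome 1 with 11887 bases between them (RefSeq, GRCm38.p6), at log2 fold changes of 0.74 and -4.40. Kcnj16 and Kcnj2 are neighbours on chromosome 11, 38195 bases apart, and both fell. To set called rectifiers of both directions side by side, the 250 bases before the RefSeq start are shown for the 5 that have a single entry in the promoter table, Kcnj10, Kcnj2 and Kcnj4, which fell, and Kcnj5 and Kcnj12, which rose. They are written 5′ to 3′ on the strand of the gene, on GRCm38.p6, with capitals marking the letters of a CCAAT box (CCAAT) or GC box (GGGCGG) on either strand. The Kcnj12 start lies inside the GENCODE span given above. The Kcnj5 window holds 6 bases of annotated Kcnj5 exon, and the RefSeq span of that gene reaches to 32344380, inside the window.
Kcnj10, chr1:172340960-172341209, plus strand: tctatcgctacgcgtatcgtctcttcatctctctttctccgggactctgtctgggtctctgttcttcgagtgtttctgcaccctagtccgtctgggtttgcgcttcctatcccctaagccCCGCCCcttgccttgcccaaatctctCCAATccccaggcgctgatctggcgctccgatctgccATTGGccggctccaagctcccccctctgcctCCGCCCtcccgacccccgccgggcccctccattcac
Kcnj2, chr11:111065914-111066163, plus strand: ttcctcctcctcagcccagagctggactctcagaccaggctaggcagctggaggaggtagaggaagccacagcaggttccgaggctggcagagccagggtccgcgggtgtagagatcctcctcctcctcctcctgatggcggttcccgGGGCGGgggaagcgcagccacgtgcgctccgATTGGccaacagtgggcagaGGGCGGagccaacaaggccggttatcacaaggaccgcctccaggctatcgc
Kcnj4, chr15:79505242-79505491, minus strand: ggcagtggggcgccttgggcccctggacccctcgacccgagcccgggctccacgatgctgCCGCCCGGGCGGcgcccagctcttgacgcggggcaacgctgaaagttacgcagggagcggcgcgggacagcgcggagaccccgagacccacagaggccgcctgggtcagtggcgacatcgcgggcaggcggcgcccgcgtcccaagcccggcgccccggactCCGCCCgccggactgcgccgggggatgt
Kcnj5, chr9:32344345-32344594, minus strand: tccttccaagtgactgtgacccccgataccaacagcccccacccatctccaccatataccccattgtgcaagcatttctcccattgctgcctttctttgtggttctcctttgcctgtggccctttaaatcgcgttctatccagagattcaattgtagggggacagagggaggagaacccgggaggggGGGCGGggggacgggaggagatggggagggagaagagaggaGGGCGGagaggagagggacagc
Kcnj12, chr11:61065554-61065803, plus strand: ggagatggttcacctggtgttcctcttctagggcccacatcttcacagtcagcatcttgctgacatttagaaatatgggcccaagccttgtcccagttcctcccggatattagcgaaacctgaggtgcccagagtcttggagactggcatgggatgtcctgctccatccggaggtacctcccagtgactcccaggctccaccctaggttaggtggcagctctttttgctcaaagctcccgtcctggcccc

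The Kcnj10 window holds 2 CCAAT boxes and 2 GC boxes, with 17 CpG pairs. That of Kcnj2 holds 1 CCAAT box and 2 GC boxes, with 14 CpG pairs, and that of Kcnj4 holds 3 GC boxes and no CCAAT box, with 35 CpG pairs. The Kcnj5 window holds 2 GC boxes and no CCAAT box, with 7 CpG pairs, and that of Kcnj12 neither, with 4 CpG pairs. Promoter windows were found for 51 of the 70 members, 74 windows in all, with a median GC content of 60.2% against 52.4% over 32851 windows of all genes. A GC box was present in 47.3% of member windows and in 32.7% of all windows, a CCAAT box in 31.1% and 33.8%, and a TATA box (TATAAA, either strand) in 2.7% and 12.4%. The members had to reach the minimum of 1 CPM and the windows of all genes did not, so the sets are unlike. Whether the contrasts are particular to this family was not tested. The marked letters are a description of the windows and not evidence of a bound factor.

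Without the replicate block, none of the 9 tandem-pore members passed (0 by edgeR, by DESeq2 and by limma-voom, with 1, Kcnk3, at an unadjusted edgeR p under 0.05). In the blocked fit 2 were called, both higher in IP. Kcnk3, the TASK-1 leak pore of relay neurons, had 63.7, 43.7 and 37.6 CPM in IP and 36.7, 26.7 and 12.2 CPM in Input, each IP value above each Input value. Its log2 fold change was 0.94 ± 0.39 (edgeR adjusted p = 0.110). In the blocked fit it passed, at 1.04 ± 0.23 (edgeR adjusted p = 0.00521). Kcnk9, the TASK-3 pore that pairs with TASK-1, was at lower levels and on the other side, with 8.31, 5.85 and 5.30 CPM in IP and 8.47, 9.53 and 10.3 CPM in Input. These groups did not overlap either, and -0.54 ± 0.32 missed the threshold (edgeR adjusted p = 0.255; with the block 0.232). Kcnk1, the TWIK-1 pore, had 137, 59.3 and 82.0 CPM in IP and 95.6, 50.6 and 36.1 CPM in Input, a log2 fold change of 0.61 ± 0.40 (edgeR adjusted p = 0.307) that passed with the block, at 0.64 ± 0.20 (edgeR adjusted p = 0.0290). Kcnk12, the THIK-2 pore, also had IP above Input without overlap, and its 0.73 did not pass (edgeR adjusted p = 0.209). TWIK-1 is known from astrocytes as well as neurons, and its level in IP was not below that in Input in any pair, unlike Kcnj10 and Kcnj16.

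Calcium- or sodium-activated members numbered 7, of which 1 fell and 6 did not pass, with 6 log2 fold changes below 0 and a median of -0.45. Kcnt1, the Slack pore opened by internal sodium (chromosome 2 from 25863734 to 25918273), had 30.5, 13.3 and 16.8 CPM in IP and 37.7, 42.0 and 60.0 CPM in Input, so IP lay below Input without overlap. The log2 fold change was -1.21 ± 0.34 (edgeR adjusted p = 0.0314), and replicate ratios ran from -1.84 to -0.31. Its call ended without IP replicate 2 or 3 (edgeR adjusted p = 0.103 and 0.102) and without Input replicate 2 or 3 (0.0659 and 0.0797). Kcnn2, the SK2 pore of calcium-activated afterhyperpolarisation, known in thalamus from the GABAergic reticular nucleus, had 7.30, 7.90 and 19.4 CPM in IP and 23.1, 17.9 and 37.6 CPM in Input, lower in 3 of 3 pairs. A fitted -1.18 ± 0.44 missed the threshold (edgeR adjusted p = 0.0816) but was called in the blocked fit, at -1.26 ± 0.24 (edgeR adjusted p = 0.00273). Kcnma1, the BK pore, had 235, 144 and 135 CPM in IP and 376, 177 and 138 CPM in Input, and -0.43 ± 0.38 did not pass (edgeR adjusted p = 0.450). GABAergic markers were lower in IP in the same libraries, and their part in the Kcnn2 and Kcnt1 values was not tested.

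Of the 10 auxiliary subunits, 2 rose and 8 did not pass. Both that rose are Kv channel interacting proteins (KChIPs), calcium sensors that bind the Shal pores. Kcnip4, KChIP4 (chromosome 5 from 48389502 to 49524907), had 360, 399 and 372 CPM in IP and 229, 226 and 171 CPM in Input, with no overlap and a narrow spread. The fitted log2 change was 0.85 ± 0.18 (edgeR adjusted p = 0.0104). Kcnip1, KChIP1 (chromosome 11 from 33629339 to 33993152), had 94.1, 123 and 116 CPM in IP and 74.1, 67.9 and 56.8 CPM in Input, with a log2 fold change of 0.74 ± 0.19 (edgeR adjusted p = 0.0229). That call ended without IP replicate 2 or 3 (edgeR adjusted p = 0.0899 and 0.0762) or Input replicate 2 (0.0712). The other two KChIPs did not pass: Kcnip3 had 135, 129 and 179 CPM in IP and 215, 168 and 163 CPM in Input, and Kcnip2 had 18.1, 15.6 and 22.1 CPM in IP and 11.3, 19.7 and 57.2 CPM in Input. The Kv1 beta subunits Kcnab1, Kcnab2 and Kcnab3 had log2 fold changes of 0.12, 0.31 and -0.08.

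Partner proteins outside the symbol rule were taken from a list of 23 genes, of which 22 were tested, with 2 higher and 3 lower in IP (3 and 5 with the replicate block) and a median log2 fold change of -0.12. Over all tested genes 25.2% were called, and 35.1% with the block, so these counts are near the shares of all genes. Dpp6 and Dpp10, the peptidase-like partners of the Shal pores, had log2 fold changes of 0.26 ± 0.38 and 0.37 ± 0.40, which did not pass. Vapa and Vapb, which tether Kv2 channels to the endoplasmic reticulum, rose, by log2 0.53 ± 0.16 and 0.73 ± 0.16 (edgeR adjusted p = 0.0422 and 0.0128). The Vapa call held in 1 of 6 fits without 1 library, that without Input replicate 1, with adjusted p up to 0.128 in the others, and the Vapb call ended without IP replicate 3 (edgeR adjusted p = 0.0536). Cntn2, a contactin at the Kv1 clusters beside the nodes of Ranvier that is made by neurons and by oligodendrocytes, fell by 1.53 on the log2 scale, Dlg1, a scaffold protein, by 1.36, and Ank3, the ankyrin of the axon initial segment, by 1.12. The other Kv1 partners Cntnap1, Cntnap2, Lgi1, Adam11, Adam22 and Adam23 lay between -0.37 and 0.10. The scaffold genes Dlg2 and Dlg4 had -0.66 ± 0.21 and 0.42 ± 0.25 (edgeR adjusted p = 0.0508 and 0.254), and both were called in the blocked fit (0.00523 and 0.0281). Akap5, an anchoring protein for kinases, had 20.2, 45.5 and 241 CPM in Input replicates 1, 2 and 3. Its log2 fold change was -2.13 ± 0.77 (edgeR adjusted p = 0.0770, and 0.0348 in the blocked fit). Without Input replicate 3 it was -0.48 (edgeR adjusted p = 0.405). Abcc9, the partner of Kcnj8 in vessels, had -1.42 ± 0.47 (edgeR adjusted p = 0.0588).

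Members were also sorted by the cell type they are best known from. Of 48 members known from neurons, 4 rose, 3 fell and 41 did not pass, with a median log2 fold change of -0.04. Those that fell were Kcng4, Kcnj4 and Kcnt1. Kcng4 and Kcnj4 met the minimum in every Input library but not in every IP library, so their falls rest on entry through Input. Of 11 genes known from glia, vessels or choroid plexus, only 6 reached the minimum, and of these 2 fell, Kcnj10 and Kcnj16, with a median of -0.70. The other 4 did not pass. The 5 below the minimum, which are not in that median, all had a lower mean CPM in IP than in Input. Of these, Kcnj13 was called lower, as given above. Kcnk13, the THIK-1 pore of microglia, had 3.53, 1.79 and 2.21 CPM in IP and 6.56, 6.42 and 1.57 CPM in Input. Kcnk6, Kcne4 and Kcna5 had log2 fold changes of -0.31, -0.45 and 0.45. Over all 10 microglial markers the sum ran from 5.63 to 9.27 CPM in IP and from 57.7 to 99.0 CPM in Input. The remaining 16 members were left unassigned, and of these 1 rose (Kcnj5) and 2 fell (Kcnj2 and Kcns3). Kcns3 too met the minimum in every Input library but not in every IP library. Called were 14.6% of neuronal, 33.3% of glial, vascular or choroid plexus and 18.8% of unassigned members. The share over all tested genes was 25.2%. The sorting is textbook knowledge and was not measured here.

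Input replicate 3 held a further group of members. It is the library rich in markers of cortex, hippocampus and striatum and of choroid plexus and ependyma. In that library 10 members (14.3%) exceeded the average of Input replicates 1 and 2 more than 3 times, against 5.13% of all tested genes. They were picked on these values and are described only. Kcnh4, an ELK channel pore, had 0.348, 1.53 and 15.2 CPM in Input replicates 1, 2 and 3, and Kcnh3, another ELK pore of forebrain neurons, had 0.891, 1.41 and 9.58 CPM. Kcnv1, a modifier subunit, had 1.65, 1.78 and 8.06 CPM, and Kcnh1, the EAG pore, 6.28, 7.75 and 26.2 CPM. Of the 10, 9 had a log2 fold change below 0 with all libraries and 6 without Input replicate 3, and their median went from -1.85 to -0.14. The 2 that were called, Kcnj4 and Kcns3, were not called without that library. Kcnh4 went from -2.81 to -0.20, Kcng3 from -2.48 to -0.79, and Kcnk2, the TREK-1 pore, from -0.04 to 0.83. Without Input replicate 3, 3 members were higher and 4 lower in all.

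**Figure D3:**
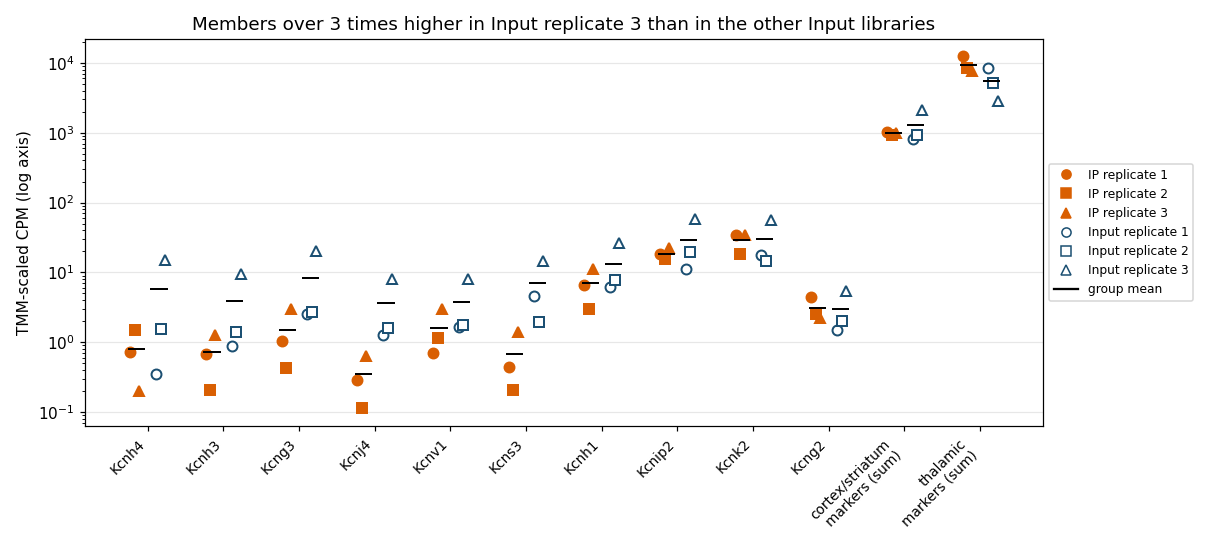
TMM-scaled CPM, on a log axis, of the 10 members over 3 times higher in Input replicate 3 than in the mean of the other Input libraries, beside the summed CPM of 2 marker lists. Open triangles, Input replicate 3, lie above every other library for these genes and for the cortex and striatum markers, and lowest for the thalamic markers.

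Replicate 1 was the high library for many members on both sides of the purification. The highest IP library was replicate 1 for 39 members, and the highest Input library was replicate 1 for 42 (for all tested genes the shares were 38.3% and 35.1%). The 70 members took 0.523%, 0.390% and 0.429% of gene reads in IP replicates 1, 2 and 3 and 0.612%, 0.433% and 0.392% in Input. Thalamic glutamatergic markers followed the same order within Input, and were highest in replicate 1 within IP too, at 12336 against 8419 and 7609 CPM. Kcns2, Kcnk1 and Kcnj9 had overlapping groups while all 3 replicate ratios were above 0.

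To compare genes with one another, levels were divided by exon length (CPM per kilobase of annotated exon, summed over all GENCODE exons of a gene). By this scale Kcnip4 was the most abundant member in IP, at 104 ± 5.49 (SD, n = 3), followed by Kcnc2 at 53.8 ± 20.4, Kcnab2 at 45.7 ± 6.21, Kcnip3 at 41.6 ± 7.78 and Kcnk1 at 41.5 ± 17.8. Only Kcnip4 was separate from the next gene: in the other 68 of 69 neighbouring pairs of this order the library values overlapped. In Input the order began with Kcnip4 at 57.5 ± 8.99, Kcna1 at 53.2 ± 15.7, Kcnip3 at 51.4 ± 8.04 and Kcnj10 at 50.02 ± 27.15. Kcnj10 thus stood at place 4 in Input and at place 40 in IP, where it had 2.38 ± 0.12. Kcnj5 went the other way, from place 42 in Input to place 24 in IP, and Kcnj12 from place 20 to place 8. Places in Input are approximate. There the Kcnj10 libraries ran from 29.7 to 80.9, overlapping Kcna1 at place 2 (41.6 to 71.1) and Kcnc2 at place 5 (22.8 to 88.5).

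**Figure D4:**
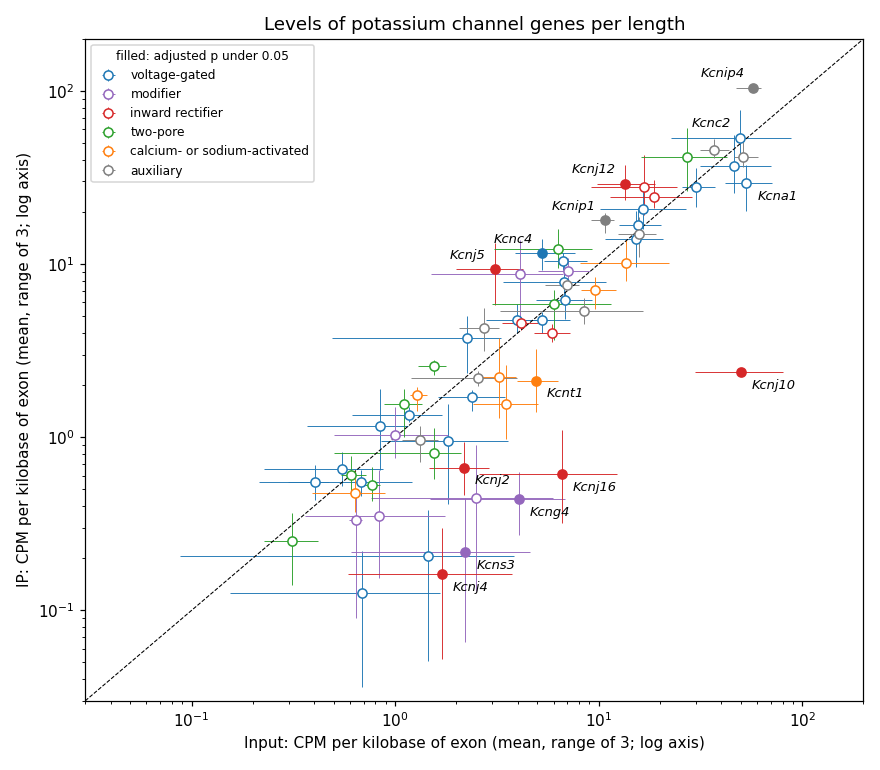
Level of 67 of the 70 members per kilobase of exon in Input (x) and IP (y), both log axes, as the mean of 3 libraries with bars from the lowest to the highest, coloured by subfamily. Filled points passed the test, the dashed line marks equal levels, and Kcnj10 lies farthest below it, at 50.02 in Input and 2.38 in IP.

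As a share of the summed level of the 70 genes per kilobase, voltage-gated pores made up 39.7% ± 3.81 in IP and 43.0% ± 2.90 in Input (SD, n = 3), and the groups overlapped. Tandem-pore channels took a larger share in each IP library (9.83%, 7.17% and 8.24% in replicates 1, 2 and 3) than in every Input library (6.43%, 6.09% and 5.57%). Kcnk1 had the highest level of the 9, at a mean of 41.5 in IP and 27.2 in Input, then Kcnk3 at 12.2 and 6.33. Log2 fold changes were above 0 for 4 of the 9 and below 0 for 5. Calcium- or sodium-activated channels took a smaller share in IP, at 3.51%, 3.31% and 3.00% in IP and 4.86%, 4.80% and 5.15% in Input. Auxiliary subunits ranged from 24.9% to 36.6% in IP and from 21.0% to 30.7% in Input, lowest in replicate 1 in both groups. Shares add to a whole within a library, so a change in one moves the others. These sums were not tested.

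**Figure D5:**
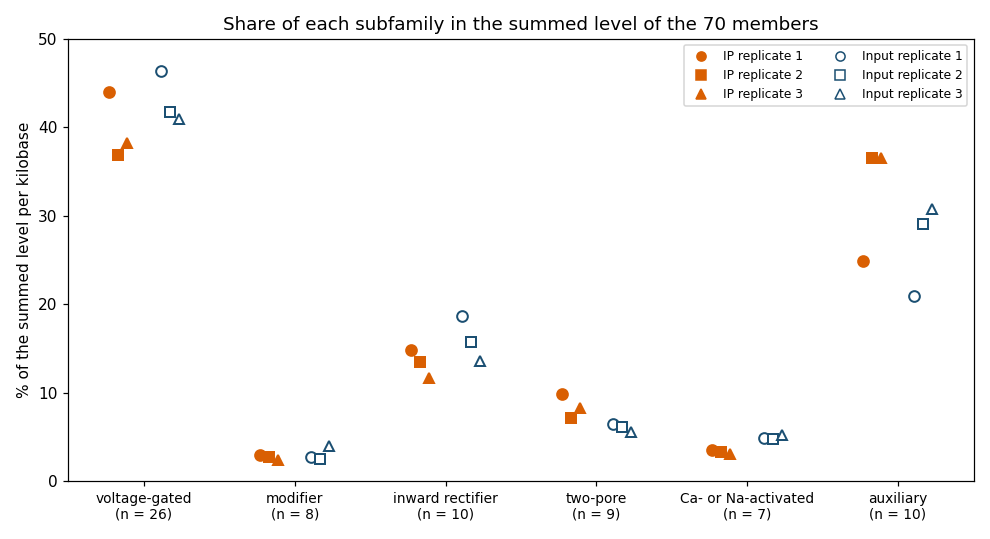
Share of each subfamily, in percent of the summed CPM per kilobase of the 70 members, with 1 symbol per library. The tandem-pore (two-pore) share lies between 7.17% and 9.83% in IP and between 5.57% and 6.43% in Input, and the calcium- or sodium-activated share between 3.00% and 3.51% in IP and between 4.80% and 5.15% in Input.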

How the data were processed

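Whole-number read counts per gene were deposited by the authors, 1 table for each of 3 IP and 3 Input libraries. The submitters' processing notes name STAR 2.0.0e, HTSeq and the build mm10. Annotation, counting mode, kit and strand setting: not given in the sources used here. A read on overlapping or antisense genes therefore has no sure owner. Summary rows and a row named unknown (6 rows) were left out. Reads on more than 1 place were 38.5% to 45.0% of records in IP and 23.6% to 27.2% in Input, and ambiguous reads 1.53% to 1.92% and 7.37% to 13.2%. No 2 libraries of a group agreed within sampling noise.

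Groups and replicate numbers came from the titles, and each replicate number had its own lane (3, 8 and 4, in that order, per the descriptions), so the effects of lane and number cannot be told apart. Counts were filtered with filterByExpr, scaled by TMM, and compared between groups in R 4.3.3 with the two-sided quasi-likelihood test of edgeR 4.0.16, p being adjusted after Benjamini and Hochberg over 16496 genes and a threshold of 0.05. The script was checked on simulated data. Fold changes are IP over Input, and each SE is on the log2 scale. Same-numbered libraries deviated together from their group means (r across genes of 0.456, 0.215 and 0.246 for replicates 1, 2 and 3), so the numbers in the titles were taken to pair them. The main fit does not use this pairing, and the fit with the replicate block does. Where no fit is named, a call or a failure to pass is that of the main fit. Values with the replicate block are printed where they change a call. The alternatives tried were scaling by RLE, library totals or upper quartile, 2 other filters, DESeq2 1.42.0, limma-voom (limma 3.58.1), the block, and leaving out each library or replicate number. Positions and exon lengths are from GENCODE M21 (GRCm38, the assembly of mm10), which held all 70 symbols, and promoter windows from RefSeq (GRCm38.p6). Values in every library are given for members called with or without the block and for 18 genes known from thalamus, capped at 30 by p. Results of some items are not reported here, and those genes are left out of the figures of single members while they stay in all counts, medians and shares. The members, the gene lists and the cell type sorting were chosen with earlier results of these data known. Genes shown for Input replicate 3, and the values in every library of Kcnip2, Kcnip3 and Kcnk13, were chosen after their values were seen.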

Additional observations from a re-analysis of the deposited data

How the results depend on the processing

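All 12 called members kept their sign under each alternative, and all 12 stayed called with RLE, library-total and upper-quartile scaling, both other filters, DESeq2 and the replicate block. With limma-voom 10 stayed called, without Kcnj4 and Kcns3. With the replicate block, 10 members and 2624 of all tested genes were higher in IP, against 5 and 1583 without it. Among genes of the text it added calls for 8 members, for Slc17a6 and Kcnmb1, and for the partners Dlg2, Dlg4 and Akap5. With DESeq2, 12 members were lower, against 7. Without 1 library or 1 replicate number, the count of members higher in IP ran from 0 to 7 and of members lower from 2 to 8, and over all tested genes from 83 to 1640 and from 651 to 2598. The lowest counts all came without replicate 2, where Kcnj10 and Kcnj16 alone stayed called. These fits hold fewer libraries, and the cause of the lost calls was not tested further. Of the genes given with values in every library but not called, 5 changed sign when libraries were left out: Kcnma1 (-0.71 to 0.12), Kcna2 (-0.73 to 0.10), Kcnip2 (-1.04 to 0.27, over single libraries), Kcnq3 (-0.33 to 0.16) and Kcnc1 (-0.31 to 0.080), so no direction is given for them. Of the 58 members not called, 18 had an SE above 0.5, among them Kcnh4 and Kcnh3 near 1 CPM in IP and Kcns2 at a mean of 49.2 CPM in IP.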
